A study of Mus musculus with 22 samples.

Results

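To ask how early after GATA1 activation the promoter mark H3K4me3 changed, peak lists of undifferentiated G1ER cells (0 h) were compared with those of cells given β-estradiol for 2 h. G1ER, named G1E-ER4 in the sample labels, is a subclone of the mouse G1E line, which lacks Gata1 and grows as immature erythroid progenitors. In this subclone a transgene makes GATA1-ER at all times, a fusion with the hormone-binding part of the estrogen receptor that needs β-estradiol to act. Both groups therefore carried the Gata1 deletion and the fusion protein, and only the 2 h group had received the hormone. All lists came from this 1 line, kept in medium with serum, stem cell factor and erythropoietin. Each group had 2 replicate lists out of 22 lists in the series, and 6 further H3K4me3 lists (6, 12, and 24 h, 2 each) and 10 H3K27ac lists were used as measures that did not enter the definition of gained and lost. Peaks of the 4 lists were merged into 15605 regions, out of 16244 when all 10 H3K4me3 lists were merged. A region was gained when both 2 h lists and neither 0 h list overlapped it, and lost in the reverse case. There were 64 gained and 239 lost regions. The lists give positions and a peak score but no read counts, so sequencing depth is unknown, and a mark present in fewer cells cannot be told apart from less of the mark in each cell.

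H3K4me3 is laid down on nucleosomes around transcription start sites (TSSs) by methyltransferases of the KMT2 and SETD1 families and marks promoters that are active or poised. GATA1 is the transcription factor that drives red cell maturation, and it binds the short motif WGATAR at promoters and enhancers. In G1E cells its return starts the erythroid program, in which globin, heme and membrane genes rise and progenitor genes such as Kit and Gata2 are shut off.

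The 4 lists resembled each other in size and extent. The 0 h lists held 14014 and 14452 peaks covering 31.2 and 32.9 Mb, and the 2 h lists held 14090 and 13196 peaks covering 32.0 and 29.3 Mb. Mean peak length averaged 2252.3 ± 34.3 bp in the 0 h lists and 2246.6 ± 38.1 bp in the 2 h lists (SD, n = 2). Replicate 2 at 2 h was the shortest list, and the times did not differ beyond the spread of the replicates in peak number (14233 ± 309.7 peaks at 0 h and 13643 ± 632.2 at 2 h, exact two-sided permutation p = 0.667). With 2 lists against 2, the smallest p that this test allows is 0.333. The shared share of covered length (the Jaccard index) was 0.846 between the 0 h replicates and 0.841 between the 2 h replicates, within the range of 0.826 to 0.852 over the pairs of 1 list from each time. At the promoters of marker genes the lists looked erythroid. Of 12 erythroid markers, 10 or 11 windows had a peak in each list, against 0 of 11 lymphoid markers, 0 of 14 markers of non-blood tissues and 1 of 11 myeloid markers. Mast cell markers had a peak at 4 to 6 of 12 promoters and megakaryocyte markers at 3 or 4 of 13.

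Sequences are shown for 3 of the gained regions present in every later list and 3 of the lost regions present in none, since these carried the most lasting differences. Each run is the middle 200 bases of the region on the plus strand of GRCm38 (mm10), read from the RefSeq assembly, and capitals mark a GATA hexamer on either strand (AGATAA or TGATAA, or else AGATAG or TGATAG). The gained regions are near Hoxc5 (chr15:103013108-103013307), Clcn3 (chr8:60964564-60964763), and Gm10842 (chr11:105152120-105152319). The lost regions are near Zfp217 (chr2:170154265-170154464), in an intron on chromosome 19 with no main protein-coding TSS within 50 kb (chr19:46863992-46864191), and near Rac2 (chr15:78564299-78564498).
Hoxc5, gained: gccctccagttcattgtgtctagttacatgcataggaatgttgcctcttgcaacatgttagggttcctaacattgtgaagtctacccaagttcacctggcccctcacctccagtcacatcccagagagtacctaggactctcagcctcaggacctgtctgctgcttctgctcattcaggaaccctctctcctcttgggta
Clcn3, gained: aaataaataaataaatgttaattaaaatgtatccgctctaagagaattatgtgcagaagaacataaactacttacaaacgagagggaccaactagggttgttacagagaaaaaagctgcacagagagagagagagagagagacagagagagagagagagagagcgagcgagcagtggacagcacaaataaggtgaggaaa
Gm10842, gained: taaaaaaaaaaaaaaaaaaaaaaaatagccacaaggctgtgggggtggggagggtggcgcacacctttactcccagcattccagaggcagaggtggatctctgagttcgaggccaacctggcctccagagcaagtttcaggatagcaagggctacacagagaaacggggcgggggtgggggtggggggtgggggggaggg
Zfp217, lost: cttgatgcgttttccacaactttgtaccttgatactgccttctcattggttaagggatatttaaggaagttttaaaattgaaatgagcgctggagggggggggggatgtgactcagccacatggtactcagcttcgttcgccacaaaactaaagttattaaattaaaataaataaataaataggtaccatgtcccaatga
Chromosome 19 intron, lost: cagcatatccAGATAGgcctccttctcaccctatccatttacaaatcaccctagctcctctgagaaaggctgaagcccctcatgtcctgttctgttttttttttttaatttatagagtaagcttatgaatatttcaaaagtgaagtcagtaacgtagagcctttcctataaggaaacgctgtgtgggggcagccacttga
Rac2, lost: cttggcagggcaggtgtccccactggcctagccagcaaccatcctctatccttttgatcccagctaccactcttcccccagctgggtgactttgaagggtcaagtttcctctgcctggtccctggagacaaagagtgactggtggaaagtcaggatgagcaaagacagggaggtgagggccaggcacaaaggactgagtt
Only the run on chromosome 19 held a GATA hexamer, at 1 place, and the other 5 held none. GC content ran from 39.0% (Zfp217) to 56.0% (Gm10842 and Rac2).

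Gained and lost regions were a small part of the whole. A peak was present in all 4 lists at 12432 regions, in 3 lists at 844, in 2 at 881 and in 1 at 1448. Gained regions were 0.41% of all regions and lost regions 1.53%. Regions with 1 list from each time formed a yardstick, since their replicates differ at both times while each time has a peak in 1 list. The pair of 0 h replicate 2 and 2 h replicate 1 alone shared 272 such regions, more than the 239 lost, and the other mixed pairs shared 166, 85, and 55. The 64 gained regions fell between the 2 smallest of these. The counts of lost and of gained regions were thus both within the range of the mixed pairs. The mixed pair with most regions joined the lists of largest extent (32.9 and 32.0 Mb). The split between lost and gained also moved with list size. When each list was reduced to the number of top-scoring peaks in the shortest list, 127 regions were gained and 130 lost, and equal list sizes bring the counts together in part by construction. Counts rose when any list was left out, because the rule is then easier to meet. They were 149 gained and 843 lost without 0 h replicate 1, 215 and 597 without 0 h replicate 2, and 196 and 725 without 2 h replicate 1. Without 2 h replicate 2, the gained regions (440) outnumbered the lost ones (366).

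**Figure D1:**
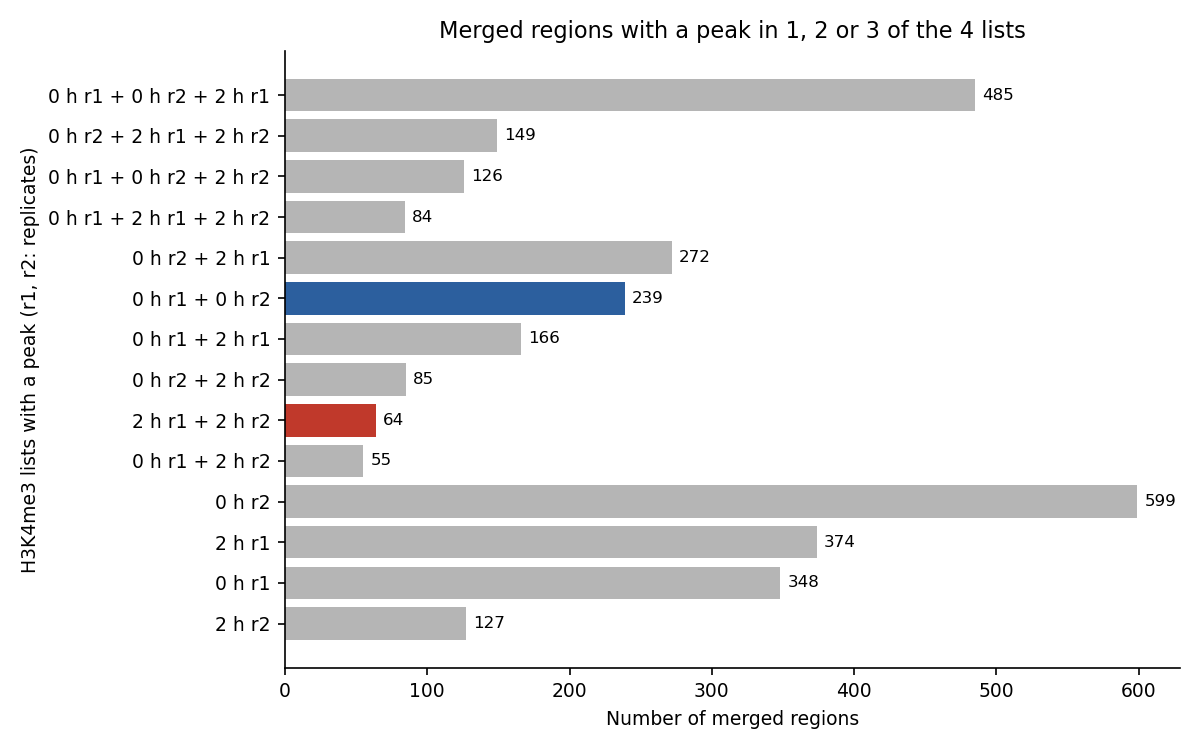
Horizontal bars give the number of merged regions (x axis) for each combination of the 4 H3K4me3 lists with a peak (y axis), leaving out the 12432 regions in all 4. The 239 lost (blue) and 64 gained (red) regions lie within the range of 55 to 272 of the grey combinations with 1 list from each time.

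Gained and lost regions were short and low-scoring and lay away from promoters. Their median length was 826 bp for gained and 829 bp for lost regions, against 807 bp for regions with 1 list from each time and 2529 bp for regions in all 4 lists. The median score percentile of their peaks, ranked within each list, was 6.79 for gained and 7.21 for lost regions, against 6.98 and 55.9. No gained region and no lost region reached the 50th percentile, and neither did any of the 844 regions in 3 lists. A protein-coding TSS lay in 4 of 64 gained regions (6.25%, 95% Wilson interval 2.46 to 15.0), in 14 of 239 lost regions (5.86%, 3.52 to 9.59), in 5.88% of regions with 1 list from each time and in 66.7% of those in all 4. These features describe the classes, and score bears directly on whether a peak is listed. In each of them, gained and lost regions lay close to regions whose presence differed between replicates.

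Annotated transcript starts and close neighbors were counted in each class as a description. The start of a non-coding or pseudogene transcript, with no protein-coding start, lay in 14 of 64 gained regions (21.9%, 13.5 to 33.4) and in 15 of 239 lost regions (6.28%, 3.84 to 10.1). The share was 7.79% in regions with 1 list from each time and 5.49% in regions in all 4 lists. Among these gained regions were those holding Rpl36-ps12 (near Sumf1), a copy named after a ribosomal protein gene, and Hoxd3os1, transcribed near Hoxd3. Reads from a processed copy and its parent gene are similar in sequence, and the study kept uniquely mapped reads. Another region lay within 1000 bp of 10 of 64 gained regions (15.6%, 8.71 to 26.4) and of 11 of 239 lost regions (4.6%, 2.59 to 8.05). It did so for 7.27% of regions with 1 list from each time and 1.73% of those in all 4 lists. The gained Tspoap1 region began 8 bp from its neighbor and the gained Sirt4 region 31 bp. No test was made on these shares, since neighboring regions and copies are not independent.

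The GATA motif was read in the middle of each region, and its share in gained regions lay below that of lost and mixed regions, with overlapping intervals. At least 1 of the hexamers above lay in the middle 500 bases of 35 of 64 gained regions (54.7%, 42.6 to 66.3) and of 148 of 239 lost regions (61.9%, 55.6 to 67.8). It lay in 62.5% of regions with 1 list from each time, in 38.5% of those in all 4 lists and in 43.5% of all 15605 regions. The AP-1 motif TGANTCA, searched on both strands like the others, lay in 10.9% of gained regions, 19.2% of lost regions, 17.1% of those with 1 list from each time and 10.3% of all regions. The KLF motif CCACACCC lay in 1 gained and 11 lost regions (4.63% of all regions), and the ETS motif CCGGAAGT in 0 gained and 6 lost regions (3.82% of all). A match is a description of the sequence and not a bound site.

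The later H3K4me3 lists, which had no part in the definition, showed how far the differences lasted. Of 64 gained regions, 5 had a peak in all 6 later lists and 14 in none. Of 239 lost regions, 83 had no peak in any later list and 4 had one in all 6. Per list, a peak was found at 34.4% to 51.6% of gained regions, at 22.2% to 31.4% of lost regions and at 25.4% to 35.1% of regions with 1 list from each time. At regions in all 4 lists the share was 96.3% to 98.3%. Gained regions thus lay above lost regions in each of the 6 later lists, with Wilson intervals that overlapped in some lists. At 24 h, 34.4% (23.9 to 46.6) and 48.4% (36.6 to 60.4) of gained regions had a peak, against 22.2% (17.4 to 27.9) and 22.6% (17.8 to 28.3) of lost regions. Peaks in both 24 h lists were found at 19 gained and 30 lost regions.

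H3K27ac, a mark of active promoters and enhancers, differed little between the times at gained and lost regions. At gained regions, an H3K27ac peak lay in 31.2% and 40.6% in the 0 h lists and in 37.5% and 34.4% in the 2 h lists. The replicates at 0 h were farther apart than the times were. At lost regions the shares were 49.8% and 46.9% at 0 h and 45.2% and 47.3% at 2 h. By the same rule, H3K27ac itself was gained at 1 and lost at 1 of the 64 gained H3K4me3 regions (1.56% each). It was gained at 2 (0.837%) and lost at 5 (2.09%) of the 239 lost ones. These shares were near those of regions with 1 list from each time, 1.56% gained and 2.77% lost. In regions in all 4 lists they were 0.483% and 0.82%. No H3K27ac was listed at either time at 48.4% of gained regions and 41.0% of lost regions, against 38.4% of those with 1 list from each time and 7.22% of those in all 4.

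**Figure D2:**
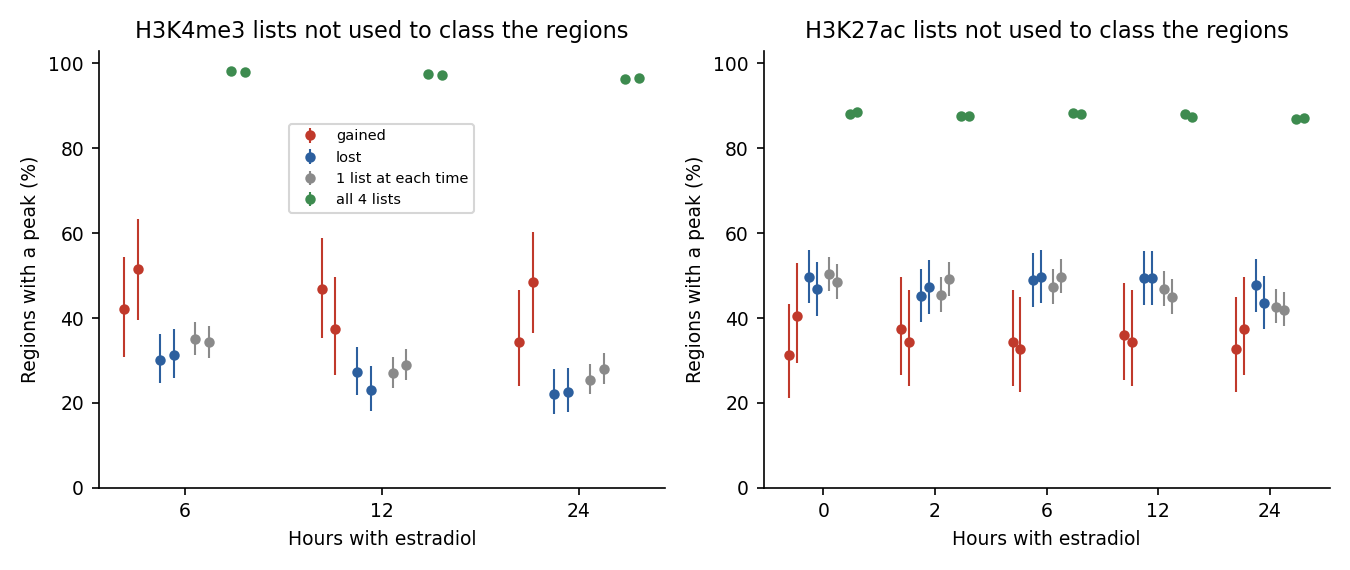
Points give the share of regions (%, y axis) with a peak in each H3K4me3 list at 6 to 24 h (left) and each H3K27ac list at 0 to 24 h (right) against hours with estradiol, for gained, lost, mixed (1 list at each time) and constant (all 4 lists) regions. Bars are 95% Wilson intervals, and the constant regions lie between 96.3% and 98.3% on the left, far above the other classes.

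Covered length was then compared at every region with a peak in at least 2 of the 4 lists. Limma on log2(covered bp + 200), with all 10 H3K4me3 lists sharing the estimate of spread, called 6 of 14157 regions longer at 2 h (0.0424%) and 11 shorter (0.0777%) at a Benjamini-Hochberg adjusted p under 0.05. At an unadjusted p under 0.05 there were 157 longer and 793 shorter regions. All 6 longer regions were gained ones. Of the shorter regions, 7 were lost ones and 4 had a peak in every one of the 4 lists. The remaining gained and lost regions did not pass. Since gained and lost regions differ between the times by definition, their limma values set the size of the difference against the spread within time points and are no separate evidence of a change. The counts depended on single lists. Longer and shorter counts were 43 and 113 without 0 h replicate 1, 71 and 108 without 0 h replicate 2, 4 and 91 without 2 h replicate 1, and 3 and 9 without 2 h replicate 2. Of the 17 called regions, 4 passed without any 1 list (gained Hoxc5, Zfp217, and Mrpl52, and lost Zfp217), and 13 lost the call without 2 h replicate 2. In the fit to the 4 lists alone, 15 of the 17 lost the call.

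The largest gain was in the HoxC cluster, whose homeobox genes encode transcription factors of body patterning. The region (chromosome 15, 103009077 to 103017338) spanned the TSSs of Hoxc6 and Hoxc5 and that of the microRNA gene Mir615. It had no peak in either 0 h list, and covered 8184 and 7507 bp at 2 h. At 6, 12, and 24 h it covered 7688 and 7631, 7757 and 7544, and 7589 and 7425 bp. All 8 lists with estradiol were high and both lists without it were empty (log2 difference 5.33, SE 0.05, limma adjusted p = 7.6e-09). Both empty 0 h lists sit at the added 200 bp and bring no spread into the SE. The rule that made this region gained used the same lists, so the p is no separate evidence of a change. In the fit to the 4 lists alone the limma adjusted p was 0.018. The 2 h peaks were long but scored only 108.18 and 166.69, at a mean percentile of 17.5. No H3K27ac peak at 0 or 2 h touched the region, while the single CTCF lists at 0 and 24 h covered 1160 and 725 bp of it.

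The neighboring HoxC promoters kept their peaks. Within 2 kb of the TSS, Hoxc4 was covered over 2590 and 2632 bp at 0 h and 2691 and 2569 bp at 2 h. Hoxc8 was covered over 2943 and 2896 bp at 0 h and 2981 and 2821 bp at 2 h. Hoxc9 had 3768 and 3643 bp at 0 h and 3720 and 2790 bp at 2 h, and Hoxc10 1228 and 1045 bp at 0 h and 964 and 937 bp at 2 h. Hoxc11 had 207 and 84 bp at 0 h and 184 bp and none at 2 h. Hoxc12 and Hoxc13 had none in any list. The gained region thus lay between promoters, Hoxc8 and Hoxc4, that were already marked. Across all 39 Hox genes, 9 promoter windows were tested, Hoxc5 and Hoxc6 passed as longer (log2 difference 4.39 and 3.73, limma adjusted p = 2.7e-08 and 4.6e-07), none passed as shorter, and 29 had no peak in any of the 4 lists. The background was 0.0304% of 9883 windows longer.

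Mrpl52, which encodes a protein of the mitochondrial ribosome, was the other gene whose promoter was gained and stayed listed. Its region (chromosome 14, 54425313 to 54429188, spanning the TSS) was empty in both 0 h lists and covered 3876 and 3425 bp at 2 h. At 6, 12, and 24 h it covered 3444 and 2991, 3658 and 3259, and 2974 and 3613 bp (log2 difference 4.26, SE 0.12, limma adjusted p = 9.2e-06). Every list with estradiol was above every list without it. A region with a peak in all 4 lists began 125 bp away, and no H3K27ac peak touched the Mrpl52 region at 0 or 2 h. When peaks within 500 bp were merged (59 gained regions), the Mrpl52 region joined this neighbor and was not gained. In a promoter window of 5 kb the log2 difference was 1.18. In the fit to the 4 lists alone the Mrpl52 region did not pass (limma adjusted p = 0.058).

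At Zfp217, a zinc finger transcription factor gene, a gained and a lost region lay side by side. The gained region (chromosome 2, 170146862 to 170151872) lay 15642 bp from the main TSS and held the start of another annotated transcript. It was empty at 0 h and covered 5011 and 4843 bp at 2 h. At 6 and 12 h it covered 4705 and 4819 and then 4932 and 4747 bp, and it was empty again in both 24 h lists (log2 difference 4.68, SE 0.09, limma adjusted p = 1.2e-06). The lost region (170152678 to 170156052) began 805 bp further on. It covered 3225 and 3375 bp at 0 h and was empty in the other 8 lists (log2 difference -4.13, SE 0.33, limma adjusted p = 0.014). Peaks in both were near the bottom of their lists, with mean percentiles of 5.51 and 7.21. The marked stretch thus lay on one side of this gap at 0 h and on the other from 2 to 12 h. The only other gained and lost pair within 2 kb of each other was near Nudt19, with a gap of 1982 bp.

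**Figure D3:**
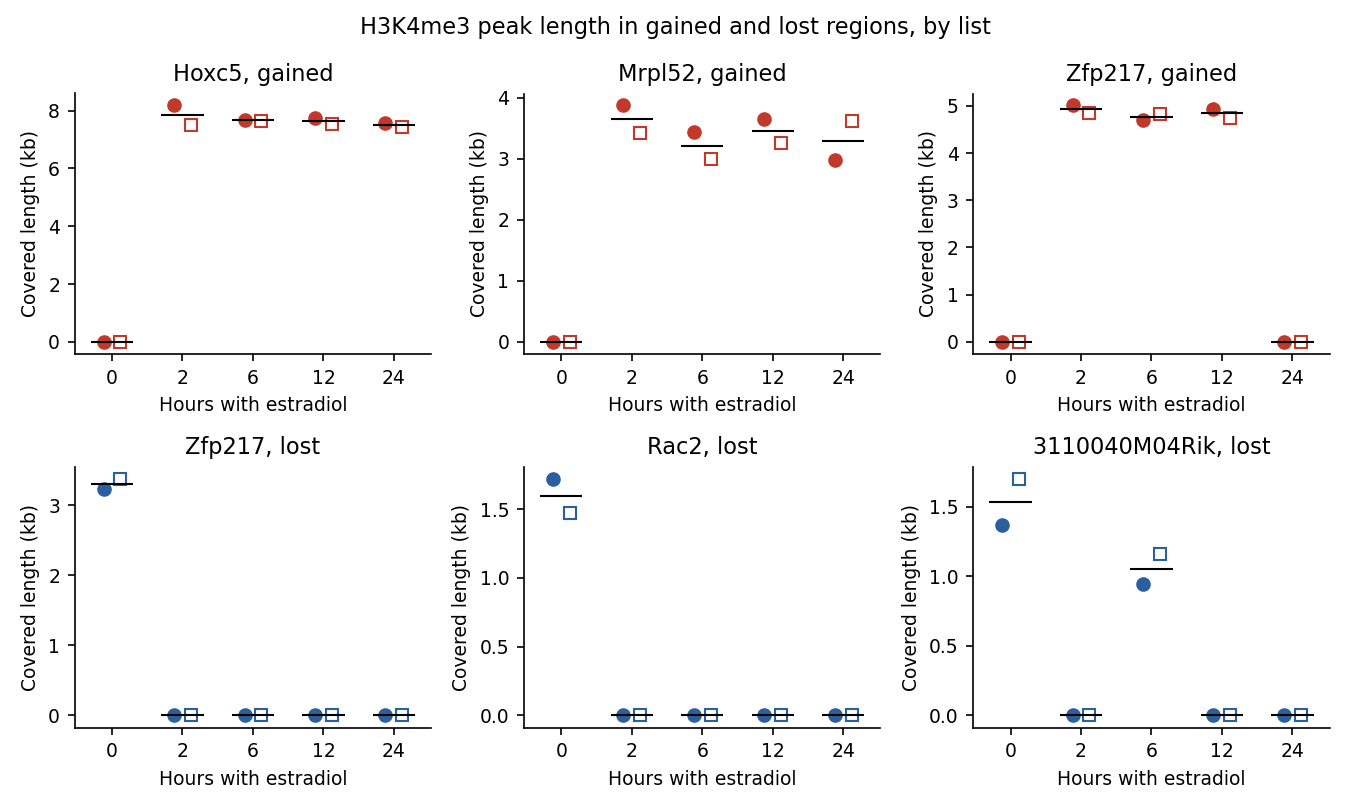
Covered length (kb, y axis) of 3 gained (red) and 3 lost (blue) regions in each H3K4me3 list against hours with estradiol. Filled circles are replicate 1, open squares replicate 2 and black lines their mean, and the Hoxc5 and Mrpl52 regions are at 0 only at 0 h while the Zfp217 pair exchanges places after 0 h.

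The other gained regions that passed lay in introns or between genes. The Clcn3 region (a chloride and proton exchanger gene) was empty at 0 h, covered 2222 and 1472 bp at 2 h, and had a peak in all 6 later lists (log2 difference 3.33, limma adjusted p = 0.032). The Gm10842 region covered 1162 and 2360 bp at 2 h and was also present in all 6 (log2 difference 3.22, limma adjusted p = 0.029). H3K27ac covered the whole of both regions in all 4 lists at 0 and 2 h, so these stretches were already acetylated before estradiol. The Cdk17 region (a cyclin-dependent kinase gene) covered 2811 and 2619 bp at 2 h and was empty at 24 h (log2 difference 3.86, limma adjusted p = 0.047). Another region lay 184 bp from it. In the fit to the 4 lists alone the Clcn3, Gm10842, and Cdk17 regions did not pass (limma adjusted p = 0.33, 0.56, and 0.094). The fifth gained region with a peak in all 6 later lists, 20313 bp from Ccny, covered 914 and 600 bp at 2 h, lay wholly in repeat-masked sequence and did not pass (limma adjusted p = 0.07).

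Some long gained regions were missing from single later lists and did not pass. The Slc41a3 region (a solute carrier gene of magnesium transport) covered 8439 and 6157 bp at 2 h, none in 6 h replicate 1, 6265 bp in 6 h replicate 2, 8153 bp and none at 12 h, and 7731 and 7846 bp at 24 h, with a log2 difference of 5.21 (SE 1.94, limma adjusted p = 0.66). The Tspoap1 region covered 5053 and 4609 bp at 2 h and was missing from 6 h replicate 1 (log2 difference 4.65, limma adjusted p = 0.39). Its 2 h scores, 392.71 and 462.38, were the highest among gained regions by percentile (35.5). Dvl2, a scaffold protein gene of Wnt signaling, was gained across its TSS with 3156 and 2896 bp at 2 h, and was missing from 12 h replicate 2 (log2 difference 4.01, limma adjusted p = 0.38). The remaining gained promoter, Gm11808, covered 663 and 760 bp (limma adjusted p = 0.42).

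At some regions, long peaks were missing from single lists. Such regions were few beside the 12432 regions in all 4 lists, whose median length was 2529 bp. Of the regions with a peak in exactly 9 of the 10 H3K4me3 lists, 42 had a median covered length of 2000 bp or more, and the missing list was a 0 h list for 14 of them and a 2 h list for 4. Of 16 regions of that length in exactly 8 lists, 2 lacked a peak in both 0 h lists (Hoxc5 and Mrpl52), 5 in both 24 h lists, and 9 in lists of different times. Some promoters behaved in this way. The promoter window of the ribosomal protein gene Rpl13a was empty in 0 h replicate 1 and covered 3721 bp in 0 h replicate 2 and 3851 and 3705 bp at 2 h. This length limit was chosen after the values were seen.

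Among lost regions, 6 of the 7 that passed lay away from the main TSS of the nearest gene. At Rac2, a small GTPase gene of blood cells, a region 7519 bp from the main TSS, at the start of another annotated transcript, covered 1720 and 1475 bp at 0 h and was empty in all 8 other lists (log2 difference -3.17, SE 0.37, limma adjusted p = 0.045). The intronic region on chromosome 19 (46862931 to 46865253) covered 1558 and 2323 bp at 0 h and was likewise empty afterward (log2 difference -3.40, limma adjusted p = 0.045), while H3K27ac covered all of it in both lists of both times. The 3110040M04Rik promoter covered 1369 and 1701 bp at 0 h, was empty at 2 h, came back at 947 and 1159 bp at 6 h and was empty at 12 and 24 h (log2 difference -3.11, limma adjusted p = 0.029). Vwa7 did the same, with 903 and 1227 bp at 0 h and 1060 and 1184 bp at 6 h (limma adjusted p = 0.045). The Armh2 region had 628 and 892 bp at 0 h, none at 2 h, and a peak in all 6 later lists (limma adjusted p = 0.031). The Nampt region, 23922 bp from the TSS of this NAD salvage enzyme gene, covered 790 and 765 bp at 0 h and returned at 6 and 24 h (limma adjusted p = 0.045). Of the 7 lost regions that passed, 3 (Zfp217, Rac2, and the region on chromosome 19) stayed empty in every later list.

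Further lost regions with no later peak were smaller and did not pass. One on chromosome 19 (45439715 to 45441259) covered 1430 and 1467 bp at 0 h (limma adjusted p = 0.052). Those near Mfsd14b, Otx1, Ybx3, and Calr4 covered from 797 to 1251 bp at 0 h, with limma adjusted p from 0.082 to 0.13. The regions with the largest lost length among those that did not pass lay 8011 bp from Rbm15, an RNA-binding protein of the m6A writer complex (1878 and 4112 bp at 0 h), and 14837 bp from Btn1a1 (2657 and 2571 bp). Both had peaks in some later lists (limma adjusted p = 0.53 and 0.65). A region on chromosome 6 (47747835 to 47750678) covered 1975 and 2829 bp at 0 h and was present in 5 of the 6 later lists (limma adjusted p = 0.4). The region beside Gm47985 covered 1585 and 1616 bp at 0 h (limma adjusted p = 0.64).

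The 14 lost regions that held a protein-coding TSS had short peaks. Apart from 3110040M04Rik, their covered length at 0 h ran from 401 bp (Gm10184) to 1109 bp (Fndc10), and none passed (limma adjusted p from 0.1 for Nlrc5 to 0.74). Itgb3, the platelet integrin β3 gene and a megakaryocyte marker, covered 870 and 820 bp at 0 h and was listed again in 12 h replicate 1 (737 bp) and 24 h replicate 2 (773 bp). Dusp2, a MAP kinase phosphatase gene, covered 770 and 486 bp at 0 h and was listed in 1 list each at 12 and 24 h. Nlrc5, an activator of MHC class I genes, covered 692 and 528 bp at 0 h and was listed in both lists at 6 h and at 12 h. Rnf207 covered 767 and 453 bp at 0 h and was the only one of the 14 with no later peak. The others were Dbndd1, Anxa6, Celf2, Padi2, Tmem74, Sarm1, and Gfpt2, each with a peak in 1 to 4 later lists. No H3K27ac peak at 0 or 2 h touched any of the 14.

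Most promoters had the same peaks at both times, with slightly shorter lengths at 2 h. At the 12432 regions in all 4 lists, the median log2 difference was -0.04, and the 5th and 95th percentiles were -0.29 and 0.15. Both 2 h lists were shorter than both 0 h lists at 2939 of these regions and longer at 1014. Over all regions tested the median was -0.042, and its size moved with single lists. It was -0.073 without 0 h replicate 1, -0.020 without 0 h replicate 2 (the list of largest extent), -0.087 without 2 h replicate 1 and 0.007 without 2 h replicate 2 (the list of smallest extent). Only 131 constant regions were shorter by over 0.5 on the log2 scale, and 20 were longer by as much.

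**Figure D4:**
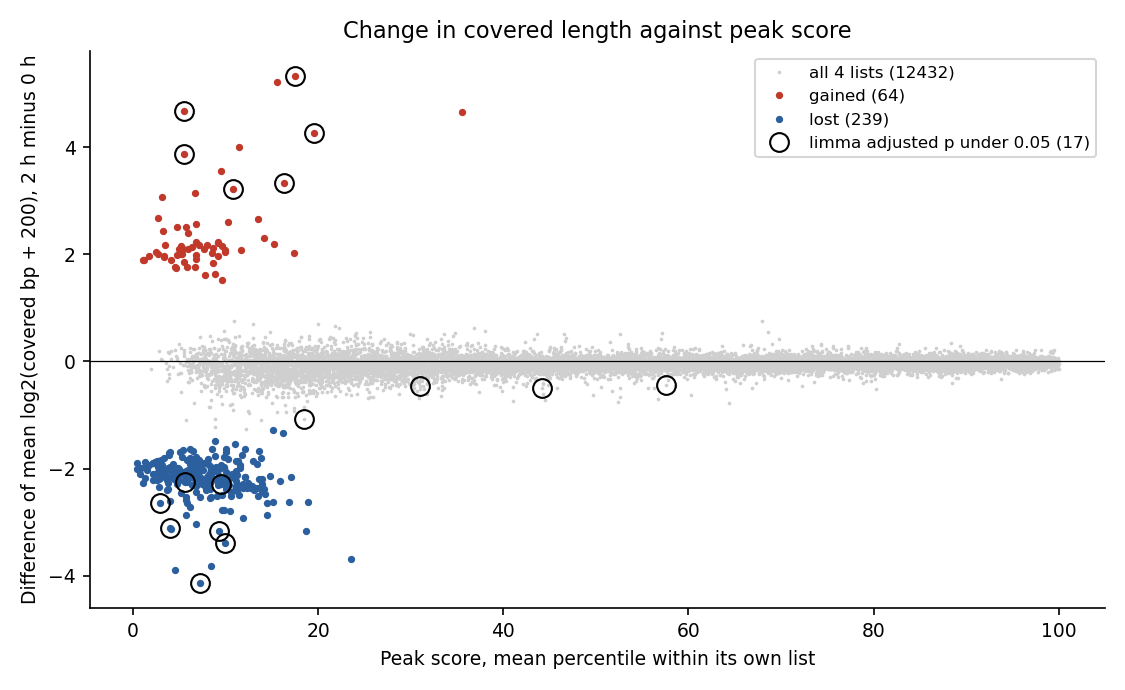
The y axis is the difference of mean log2(covered bp + 200), 2 h minus 0 h, and the x axis the mean score percentile of a region's peaks within their own lists, for gained (64), lost (239) and constant (12432) regions. Open circles mark the 17 regions with limma adjusted p under 0.05, and gained and lost regions sit below the 50th percentile, with median percentiles of 6.79 and 7.21.

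Of the constant regions, 4 passed as shorter, 3 of them at promoters. At Mlec, which encodes the ER lectin malectin, the region covered 7680 and 7929 bp at 0 h and 5614 and 5612 bp at 2 h, and stayed between 5349 and 5733 bp later (log2 difference -0.46, SE 0.05, limma adjusted p = 0.029). Resf1, a retroelement silencing factor gene, went from 4242 and 4450 bp to 3212 and 3113 bp and stayed between 3158 and 3524 bp (log2 difference -0.44, SE 0.04, limma adjusted p = 0.024). Bnip3, a mitophagy receptor gene, fell from 4131 and 4039 bp to 2816 and 2845 bp and was back at 3838 to 3953 bp by the last 4 lists (log2 difference -0.5, SE 0.05, limma adjusted p = 0.033). H3K27ac in the Bnip3 region was also shorter, with 3125 and 3080 bp at 0 h and 2015 and 1896 bp at 2 h. The fourth, 12548 bp from Adamtsl4, fell from 2087 and 2107 bp to 853 and 936 bp (log2 difference -1.07, limma adjusted p = 0.045). At the 3 promoters the peak scores were higher in both 2 h lists, for example 611.83 and 536.75 against 183.15 and 139.87 at Mlec. The opposite was seen at the longer regions below, so these scores say nothing particular about the shorter promoters. Each of the 4 calls was lost in at least 1 fit that left out a list, with limma adjusted p up to 0.11 (Adamtsl4 without 2 h replicate 2).

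No constant region passed as longer. The smallest p was at Arl4d, an ARF-like GTPase gene, with 2296 and 1996 bp at 0 h and 3131 and 3108 bp at 2 h, with a log2 difference of 0.50 (SE 0.06, limma adjusted p = 0.053). All 6 later lists at Arl4d lay between 3002 and 3170 bp, above both 0 h lists. Nadk2 (5027 and 5624 bp against 7376 and 6914 bp) and Fem1a (3117 and 2991 bp against 3862 and 3873 bp) had limma adjusted p of 0.13 and 0.14. At Arl4d, Nadk2, and Fem1a the peak scores were lower in both 2 h lists, for example 321.82 and 381.72 against 1053.74 and 821.42 at Nadk2.

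The erythroid program was next read at promoters, in windows of 2 kb either side of 1 TSS per gene. Of 9883 windows tested, 3 passed as longer (Hoxc5, Hoxc6, and Mrpl52) and 2 as shorter (3110040M04Rik and Slc22a23, 0.0202%), and 493 had an unadjusted p under 0.05. Slc22a23, a solute carrier gene, went from 4001 bp in both 0 h lists, the whole window, to 3242 and 3347 bp (log2 difference -0.27, SE 0.01, limma adjusted p = 0.0014). It was back at 4001 bp in all lists at 12 and 24 h. This call depended on the window size, with a log2 difference of 0 for windows of 1 kb (limma adjusted p = 1) and -0.33 for 5 kb (limma adjusted p = 0.94). The 3110040M04Rik window also lost its call at 1 and 5 kb (limma adjusted p = 0.078 and 1), and the Hoxc5, Hoxc6, and Mrpl52 windows passed at both sizes. Counts of longer and shorter windows were 12 and 1 without 0 h replicate 1, 20 and 1 without 0 h replicate 2, 3 and 22 without 2 h replicate 1, and 3 and 9 without 2 h replicate 2. None of the 5 passed in the fit to the 4 lists alone.

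No globin or heme gene passed at 2 h. Of 10 globin genes 5 were tested, and 0 passed in either direction, with a median log2 difference of -0.15 against -0.02 over all windows. Hba-a1 was covered over 2858 and 2862 bp at 0 h and 2685 and 2421 bp at 2 h, and Hbq1b over 925 and 813 bp at 0 h and 707 and 545 bp at 2 h. Hbb-bt, an adult β-globin gene, had 1130 and 2274 bp at 0 h and 2280 and 1702 bp at 2 h. The globin copies are close in sequence, so their reads may be split or dropped by unique mapping. All 12 heme synthesis genes were tested, 0 passed, and 11 of 12 differences were below 0 (median -0.07). Alas2, the first enzyme of erythroid heme synthesis, had 752 and 892 bp at 0 h and 1041 bp and none at 2 h, and Slc25a38, a mitochondrial carrier of glycine, had 2248 and 2466 bp against 1935 and 1876 bp. Among iron uptake and storage genes 11 of 12 were tested, 0 passed, and the median was -0.04. Steap3 was listed in 1 of the 0 h lists (1168 bp) and was not tested, and Slc25a37 (mitoferrin) had 2422 and 2530 bp against 2206 and 2234 bp. Among red cell membrane genes 18 of 20 were tested, 0 passed, and the median was -0.04. Epb42 had 2183 and 2248 bp against 1845 and 1909 bp, and Rhd 1799 and 2159 bp against 2557 and 1978 bp. None of these 4 lists touched a gained or lost region, a contact found at only 6 (gained) and 24 (lost) of all 21866 windows.

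Transcription factor and progenitor genes did not pass either. Of 22 erythroid transcription factor genes 17 were tested, 0 passed, and the median was 0.01. The largest differences there came from single lists. Foxo3 covered the whole window (4001 bp) in every one of the 4 lists but 0 h replicate 2, which had none, and Nfe2 had 3598 and 3963 bp at 0 h and none and 3743 bp at 2 h. Of 18 progenitor genes 13 were tested, 0 passed, and the median was 0. Kit, the stem cell factor receptor gene that GATA1 represses, had 3144 and 3085 bp at 0 h and none and 2988 bp at 2 h (limma adjusted p = 0.97), and Meis1 had 1787 and 1690 bp against 1621 and 1417 bp. At Gata2 no H3K4me3 peak lay within 61.6 kb of the TSS used in any of the 4 lists, so no change could be read there. The nearest H3K27ac peaks at 0 and 2 h lay 27.2 to 28.0 kb away. Undifferentiated G1E cells are known to express Gata2, so an empty list at a promoter does not show that the gene is silent or that the mark is absent.

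Immediate early genes, which respond first to many stimuli, were also without a call. Of 23 genes 20 were tested, 0 passed, and the median was 0. Dusp2 touched a lost region, and Zfp36 covered 4001 bp in 3 of the 4 lists and 1984 bp in 2 h replicate 2. Of the genes for H3K4 methylases and demethylases 14 of 16 were tested, and 0 passed (median 0). Men1 had 2721 and 2634 bp against 2223 and 2428 bp, and Cxxc1 2378 and 2223 bp against 2481 and 2581 bp. All 16 housekeeping genes were tested, 0 passed, and the median was -0.01. Rpl13a is given above, and B2m had 3134 and 3276 bp against 4001 and 3208 bp. In the marker lists 0 windows passed, and the median was -0.12 for 11 erythroid and 0.10 for 5 mast cell genes tested. Summed over the list, erythroid markers covered 29.0 and 30.5 kb at 0 h and 25.4 and 26.9 kb at 2 h, and mast cell markers 7.86 and 9.89 kb at 0 h and 12.2 and 9.22 kb at 2 h. At Hdc, the histidine decarboxylase gene of mast cells, there was no peak in 0 h replicate 1, 958 bp in 0 h replicate 2, and 1743 and 1250 bp at 2 h (limma adjusted p = 0.97). Of 13 megakaryocyte markers 4 were tested (median -0.05), and only Itgb3 touched a lost region.

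**Figure D5:**
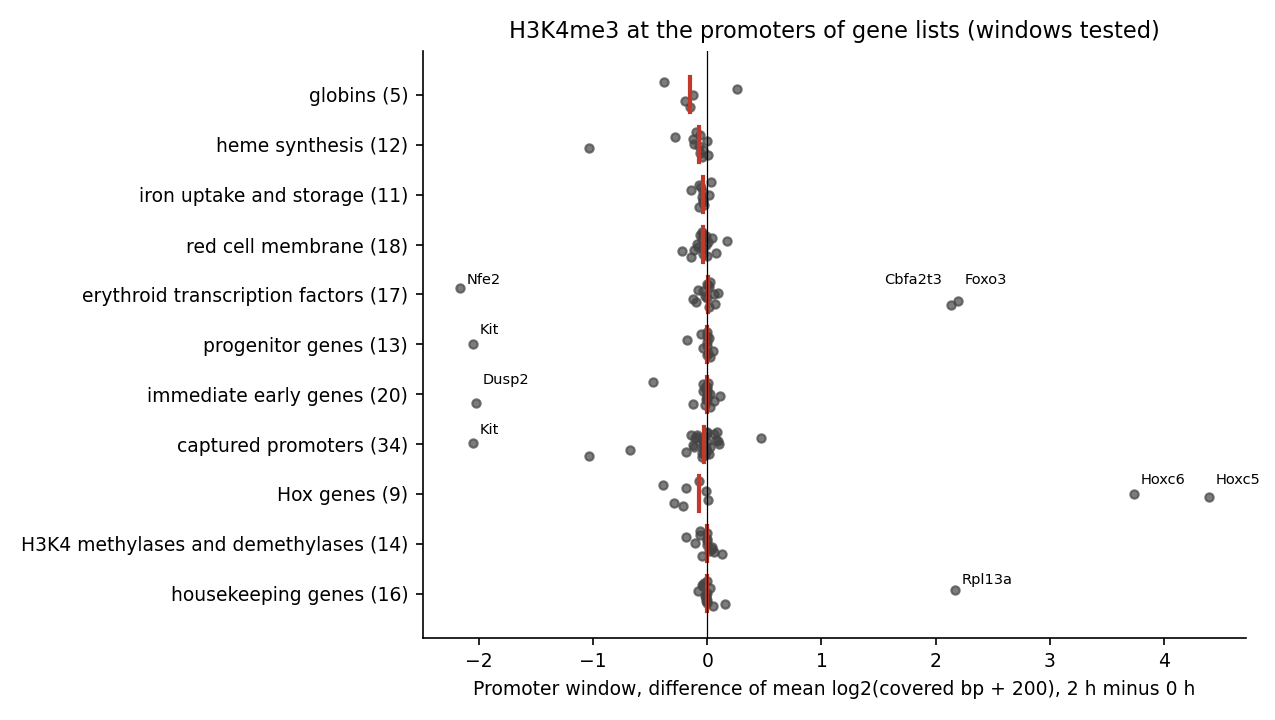
Each point is the promoter window of 1 tested gene, placed on the x axis by its difference of mean log2(covered bp + 200), 2 h minus 0 h, and on the y axis by gene list, with the number of windows tested in brackets. Red bars are list medians, which lie between -0.15 and 0.01, and the labeled genes lie beyond the rest, Hoxc5 and Hoxc6 by 4.39 and 3.73.

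The promoters captured in the study were without a call at this time. Of 42 genes 41 were matched and 34 tested, 0 passed in either direction, and the median was -0.02. No captured promoter touched a gained or lost region. Over all 21866 windows, gained regions touched 6 and lost regions 24, so little can be read from none among 41 genes. The list was chosen by the study for its behavior in these cells. At Btn1a1, a butyrophilin gene, the promoter covered 2768 and 2436 bp at 0 h and 2589 and 2439 bp at 2 h, although the lost region named above lay 14837 bp away. Ms4a2, the mast cell IgE receptor β chain gene, had 2086 and 2380 bp at 0 h and 2393 and 2398 bp at 2 h. Tmem184a had 1275 and 1228 bp at 0 h and none and 1263 bp at 2 h (limma adjusted p = 0.95). For Mafk, a small MAF transcription factor gene, the TSS used (chromosome 5, 139797514) had no peak in the 4 lists. Its other TSS (139791513) had 2698 and 2585 bp at 0 h and 2518 and 2455 bp at 2 h. Gzmb and Slc38a5 were each listed in 2 h replicate 1 alone, over 1293 and 585 bp, and were not tested.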

How the data were processed

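H3K4me3 was measured by ChIP-seq. Reads were mapped by the authors to mm10 (Bowtie2, default settings), multiply mapped ones were dropped, and MACS was run on each library. The MACS version, control and cutoff are not given in the sources used here. The labels name a human build, but 57.9% to 62.9% of peaks in the 4 lists held a mouse protein-coding TSS, against 4.27% to 4.39% when moved by 50 kb. The deposited score of a peak comes from the authors' run and served here for ranks and score filters alone. The deposited files hold positions and scores, so the depth behind each list is unknown, and so is its precision. Presence in a list depends on depth and background as well.

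Lists were grouped by sample title. The 4 lists were merged where peaks touch, and overlap meant 1 bp or more. Covered length per region (peak in at least 2 of the 4 lists) and per promoter window was tested with limma 3.58.1 (trend, 10 lists, 1 mean per time) on log2(covered bp + 200), with Benjamini-Hochberg adjustment over all regions or windows. The step was also run on simulated lengths with known shifts and normal noise. These do not copy the all-or-none listing at gained and lost regions, so that run does not vouch for the calls there. Because an empty list is set to the added 200 bp, differences at gained and lost regions mainly follow peak length. One TSS per gene was used, from GENCODE M21 (best APPRIS level, then the longest transcript), and regions were named by the nearest such TSS within 50 kb. Named regions were the 6 largest differences in each direction, up to 8 each with peaks in all or no later list, those with a TSS (up to 15), up to 6 constant regions per direction by limma p (3 where none passed), and per gene list the called genes and the 2 largest differences. Members and lists were chosen with earlier results of these data known. Shares carry 95% Wilson intervals, which cover counting error only. The study describes 2 independent experiments per time. Alternatives were other score filters, equal peak numbers, autosomes and X, merging within 500 bp or over 10 lists, 50% overlap, pseudocounts of 50 and 1000 bp, other minimum numbers of lists (1 and 3), scaling by median peak length, the 4 lists alone, a replicate block, windows of 1 and 5 kb, other TSS sets, and leaving out each list. Python 3.11.15, pandas 2.3.3, scipy 1.17.1, pysam 0.24.0, and R 4.3.3 were used.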

Additional observations from a re-analysis of the deposited data

How the results depend on the processing

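No called region or window turned direction under an alternative that could be computed for it, though the Slc22a23 window had a difference of 0 at 1 kb. For the 6 gained and 7 lost regions called, the direction could not turn, because both lists of 1 time are empty by the rule. The Hoxc5, Hoxc6, Mrpl52, and 3110040M04Rik windows were likewise empty in both lists of 1 time. The kept direction is therefore no sign of stability there. Many calls were lost (159 combinations kept the call and 76 lost it). Keeping only peaks that reached the pooled median score gave 31 gained and 47 lost regions, of which 90.3% and 72.3% held a protein-coding TSS. By construction these include promoters whose peak crossed that score. Equal numbers of top-scoring peaks gave 127 and 130. Counting the TSS of every annotated gene raised the shares to 32.8% and 14.6%. Leaving out 1 list gave 149 to 440 gained and 366 to 843 lost regions, with fewer lists to satisfy by construction. Mean peak length differed by -5.64 bp, and this reversed to 18.6 bp without 0 h replicate 2 and 21.3 bp without 2 h replicate 2 (range over lists -32.6 to 21.3 bp); the cause was not tested.

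Limma called 6 longer and 11 shorter regions. Longer counts were 3 with 1000 bp added and 0 for peaks in at least 3 lists, where gained regions cannot enter. Shorter counts were 0 with the 4 lists only, 0 for at least 3 lists and 4 for higher-scoring peaks. Leaving out a list gave 3 to 71 longer and 9 to 113 shorter regions. For windows (3 and 2), the 4 lists only gave 0 and 0, at least 3 lists 0 and 1, and higher-scoring peaks 6 and 8. A 5 kb window gave 5 longer. The Slc22a23 and 3110040M04Rik windows were not called at 1 or 5 kb. Leaving out a list gave 3 to 20 longer and 1 to 22 shorter windows. A replicate block left 4 longer and 0 shorter regions, and 3 longer and 1 shorter windows. The correlation of replicate deviations between time points ran from -0.093 to 0.033, so covered length showed little that lists of the same replicate number shared. It cannot show whether such lists came from the same experiment. With the differences taken within replicate numbers (replicate block) the peak number differed by -590.0. This equals the unpaired difference by arithmetic and is no check. The exact permutation test used for these list totals cannot go below 0.333 with 2 lists against 2.

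Read depth is unknown and limits what an empty list can show.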
